A study of Mus musculus with 18 samples.

Results

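The genes examined here build the cornified envelope and the barrier of the epidermis. They were picked by gene name, under a rule set with earlier results of these data known. The rule took every gene whose symbol starts with Lce. It also took 26 further genes of the envelope, of its crosslinking, of the corneodesmosome and of barrier lipids. The count table held 47 of them among 52636 genes, namely 21 Lce genes and all 26 others. Of the 47, 25 passed the filter on low counts over the 6 groups, 24 were tested in at least 1 comparison with all libraries kept, and none of the 21 Lce genes was among them.

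RNA was sequenced from epidermal cells of adult mice that carried floxed alleles of Zfp36 (fl/fl, the littermate controls) or had lost the gene in cells expressing a Cre under the human keratin 14 promoter (ΔEP, written ΔK14 in the labels). Zfp36 encodes tristetraprolin, which recognizes AU-rich elements of mRNA and hastens the decay of the transcript. Cells of each genotype came from mock-treated skin (mock), from nontumoral skin that had received the mutagen DMBA and the tumor-promoting phorbol ester TPA (treated), and from the papillomas of such skin (tumor), with 3 columns of counts in each of the 6 groups. Cells were sorted as EpCAM+ CD45- CD140a- CD31-, although whole skin is the source named in the labels, which also call the cells of treated skin tumoral. The labels do not say which animals gave which library, so p-values measure the spread between these samples only.

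The cornified envelope is a layer of crosslinked protein that replaces the plasma membrane of keratinocytes in the last step of their differentiation. Its precursors, such as loricrin, involucrin and the late cornified envelope (LCE) proteins, are joined by transglutaminases onto a scaffold of envoplakin and periplakin. Filaggrin bundles keratin filaments beneath it, proteases process filaggrin and the corneodesmosomes, and ceramides with ultra-long acyl chains fill the space between the dead cells. Some of the genes, among them Tchh and Tgm3, also serve in the hair follicle.

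On GRCm38, 31 of the 47 genes lay on chromosome 3, and 30 of these lay between 92080271 and 93471980 in the epidermal differentiation complex, with the Lce genes between 92620081 and 93019060. Sbsn, Dmkn and Krtdap lay side by side on chromosome 7 between 30751471 and 30791097. Many of the Lce genes share sequence with other genes: a median of 19.94% of the 50-base words in their exons (0 to 49.32%) occurred in another gene, against a median of 0 and at most 6.964% for the others, and 17 of the 21 exceeded 10%. The division of reads among those Lce genes is therefore uncertain. How reads that match several genes were counted was not examined, so the totals of the family could be affected too. The span of another annotated gene, introns included, overlapped Tgm5, Tgm3, Hrnr, Rptn and Tchh on the opposite strand and Flg and Sbsn on the same strand. Whether exons overlap was not examined. Since the use of strand is not given in the sources used here, reads from any shared exon stretch could not be told apart.

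Promoter sequences are shown because TPA acts on transcription through AP-1, whose site is the TPA response element. In the RefSeq table of GRCm38.p6, which gives 250 bases before to 50 bases after a start site, 43 of the 47 genes were found (Calml3, Evpl, Lce1f and Ppl were not). The AP-1 letters TGANTCA, read on both strands, occurred in 12 of 27 windows of the genes outside the Lce family (44.4%), in 0 of 20 Lce windows (0%) and in 7.81% of all 32851 windows. The 10 genes with the letters were Crnn, Dmkn, Flg, Flg2, Ivl, Krtdap, Lor, Rptn, Sbsn and Tchhl1. A TATA box, TATAAA, stood in 29.6% of the windows outside the family, in 20% of Lce windows and in 13.6% of all. The letters CACCC stood in 70.4%, 40% and 57.5%, and AACNNGTT, a motif of Grainyhead-like factors, in 7.41%, 0% and 4.2%. These are matches of letters only. With any base allowed in the middle, the AP-1 letters are wider than the TPA response element, TGAGTCA or TGACTCA. The Flg match below, TGAATCA, is not that element. The windows below, written 5′ to 3′ on the strand of the gene, are those of filaggrin, involucrin and Krtdap, which hold both an AP-1 and a TATA match in capitals, and of Asprv1, which holds neither. The AP-1 match began 103 bases before the start in Flg (chr3:93273296-93273595, plus strand), 116 in Ivl (chr3:92573686-92573985, minus strand) and 81 in Krtdap (chr7:30787655-30787954, plus strand), and the Asprv1 window was chr6:86627924-86628223 on the plus strand.
Flg: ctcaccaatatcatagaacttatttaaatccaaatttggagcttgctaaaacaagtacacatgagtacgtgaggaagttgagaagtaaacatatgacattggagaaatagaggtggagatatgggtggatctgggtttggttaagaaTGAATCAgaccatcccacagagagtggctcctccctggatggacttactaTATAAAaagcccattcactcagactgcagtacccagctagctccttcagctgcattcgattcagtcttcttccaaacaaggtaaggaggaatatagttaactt
Ivl: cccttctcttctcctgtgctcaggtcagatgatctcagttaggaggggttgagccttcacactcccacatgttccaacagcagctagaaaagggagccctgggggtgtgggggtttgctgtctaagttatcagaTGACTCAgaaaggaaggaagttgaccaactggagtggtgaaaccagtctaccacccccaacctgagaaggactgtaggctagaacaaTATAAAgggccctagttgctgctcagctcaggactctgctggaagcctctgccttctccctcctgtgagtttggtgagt
Krtdap: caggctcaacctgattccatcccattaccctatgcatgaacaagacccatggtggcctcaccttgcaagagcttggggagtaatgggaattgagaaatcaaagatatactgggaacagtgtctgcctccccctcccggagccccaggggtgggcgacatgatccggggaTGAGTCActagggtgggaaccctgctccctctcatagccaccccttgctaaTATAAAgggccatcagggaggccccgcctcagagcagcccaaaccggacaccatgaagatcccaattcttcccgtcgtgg
Asprv1: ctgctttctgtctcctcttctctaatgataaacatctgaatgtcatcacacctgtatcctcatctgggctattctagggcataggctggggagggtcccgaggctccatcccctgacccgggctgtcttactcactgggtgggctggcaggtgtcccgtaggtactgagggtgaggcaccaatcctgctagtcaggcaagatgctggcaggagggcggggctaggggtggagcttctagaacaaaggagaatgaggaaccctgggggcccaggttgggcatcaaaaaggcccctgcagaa

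AU-rich sites were counted because tristetraprolin binds them. The heptamer TATTTAT occurred in the annotated 3′ untranslated region of 1 of 46 of these genes (2.17%) against 27.6% of 21045 genes, and the nonamer TTATTTATT in 0 against 7.65%. The regions of the 46 genes had a median length of 228 bases against 960 over all, and the shares were not adjusted for length. The heptamer stood at 2 sites of Elovl4, a fatty acid elongase that makes the ultra-long acyl chains of barrier ceramides, whose region is 1848 bases long. They are shown with the heptamer in capitals, for chr9:83780362-83780388 (162 bases after the stop codon) and for chr9:83778913-83778939 (1611 bases after it), both on the minus strand.
Elovl4 near site: ccagatgtttTATTTATgaagttttta
Elovl4 far site: aattataaagTATTTATtgtgcgttga

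Since replicates 2 and 3 of mock ΔEP held the same counts throughout, they entered as 1 library, which left 17 libraries with total counts of 2808550 to 9617985 and n = 2 for mock ΔEP. Zfp36 stood at 152 to 713 CPM (counts scaled to 1000000 per library) in fl/fl libraries and at 10.03 to 38.4 in ΔEP libraries. Some libraries stood apart. Replicate 1 of each mock group held 1482 (fl/fl) and 1520 CPM (ΔEP) of 6 inner root sheath keratins of the hair follicle, against 2.79 to 5.75 in the other mock libraries, and 655 and 523 CPM of the suprabasal keratins Krt1 and Krt10, against 5561 to 7480. Tumor fl/fl replicate 1 held 334 CPM of 7 sebaceous gland genes and 32775 CPM of 5 basal keratinocyte genes, while replicates 2 and 3 held 4182 and 7606 CPM of the former and 8219 and 8335 of the latter. The ΔEP tumors held 233 to 339 CPM of the sebaceous and 25800 to 27806 CPM of the basal genes. In both sums they were nearer to fl/fl replicate 1 than to the other fl/fl tumors. In bulk RNA, fewer cells of a type and less RNA per cell cannot be told apart.

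Levels of the genes differed widely. Per kilobase of exon, the highest means over the libraries were those of Krtdap (346 CPM per kilobase), Dmkn (123), Tchh (37.0), Elovl4 (33.6) and Ppl (33.4). Krtdap and Dmkn were also the highest in tumors (482 and 180 CPM per kilobase in fl/fl, 558 and 170 in ΔEP), where Tchh was no longer among the 7 highest and Elovl4 (58.3) in fl/fl and Asprv1 (47.7) in ΔEP tumors came next. Krtdap and Dmkn encode small secreted proteins of suprabasal keratinocytes. Several precursors were low. Lor, which encodes loricrin, stayed between 0.181 and 3.50 CPM in the 17 libraries. Repetin (Rptn), cornulin (Crnn), hornerin (Hrnr), Flg2 and Tchhl1 reached no more than 7.0, 4.56, 4.90, 1.76 and 2.10 CPM, respectively. Higher among the precursors were Tchh (9.40 to 699 CPM), Flg (0 to 53.1), Ivl (4.67 to 42.1) and Cnfn (0 to 17.7). Corneodesmosin (Cdsn), which holds the dead cells together, reached no more than 10.5 CPM. With all libraries kept, Flg2, Hrnr and the Lce genes were too low to be tested in any comparison. Suprabasin (Sbsn) ranged from 24.9 to 151 CPM and was called in no comparison with all libraries kept.

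In mock skin the most abundant genes divided by library. Dmkn was 52.0, 358 and 337 CPM in the fl/fl replicates and 58.0 and 403 in the ΔEP replicates. Krtdap was 24.8, 291 and 198 CPM and 35.3 and 409. Abca12, the transporter that loads lipids into lamellar granules, was 41.9, 269 and 235 CPM and 52.1 and 292. For these 3 genes replicate 1 was the lowest of each genotype. Elovl4 (18.8, 125 and 113 CPM in fl/fl, 21.9 and 187 in ΔEP), Evpl (79.1, 276 and 334; 73.9 and 171) and Casp14 (14.3, 42.1 and 49.5; 10.3 and 71.5) had the same order, as did Ppl in ΔEP mock skin (185 and 381). Tchh went the other way, at 575 CPM in ΔEP replicate 1 and 10.8 in replicate 2. Tgm1 (10.6, 1.37 and 2.60 CPM in fl/fl, 9.98 and 4.31 in ΔEP) was also highest in replicate 1 of each genotype. So were Tgm3 (39.9, 16.2 and 11.5; 34.8 and 13.3) and the low Crnn and Tchhl1. Replicate 1 of each genotype was the library with the inner root sheath keratins and little Krt1 and Krt10.

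The summed level of the genes varied as much within groups of skin as between them. Without Tchh, the sum was 576 and 605 CPM in replicate 1 of fl/fl and ΔEP and 2218 to 2247 CPM in the other mock libraries. In treated skin it was 1069, 1434 and 600 CPM in the fl/fl replicates and 655, 1454 and 2350 CPM in the ΔEP replicates. In tumors it was 1376 to 2001 CPM. The genotypes overlapped in mock and in treated skin. Treated fl/fl replicate 3 and treated ΔEP replicate 3, the lowest and the highest, also held the lowest and highest Krt1 and Krt10 of treated skin (664 and 9421 CPM); the part of this difference in the results was not tested.

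**Figure D1:**
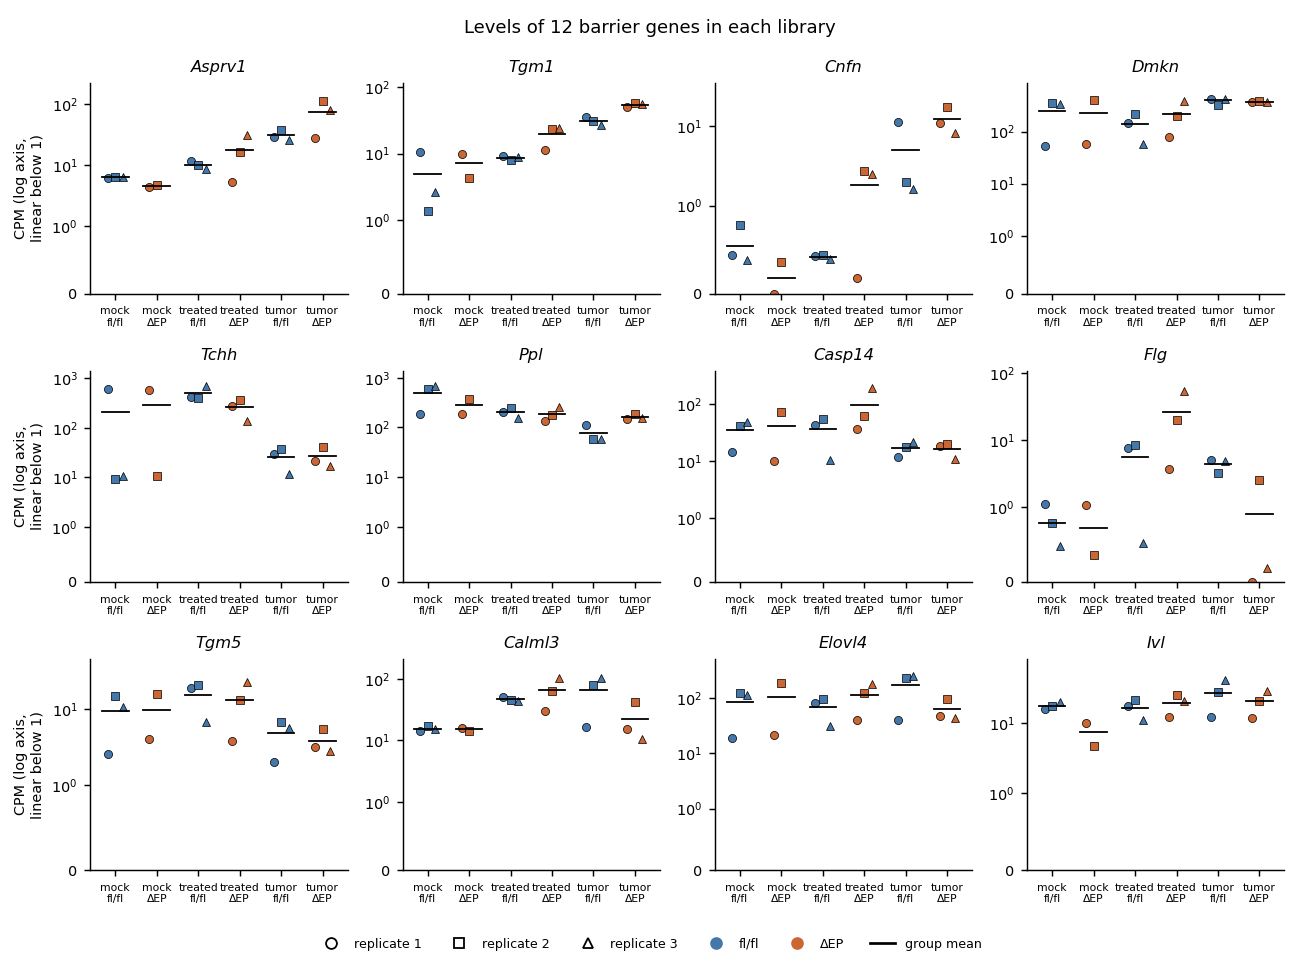
Level of 12 barrier genes in each of the 17 libraries, in CPM on an axis that is logarithmic above 1 and linear below. Marker shapes give the replicate, colors the genotype and bars the group mean. Asprv1 and Tgm1 had their highest group means in tumors, and Tchh was high in treated skin and in replicate 1 of each mock group.

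Counts of the Lce genes were few and were found mostly in tumors. The 21 genes together had 68 counts in the 11 skin libraries and 152 in the 6 tumor libraries, no gene exceeded 10 counts in a library, and Lce1h had none anywhere. At least 1 count was found for 8 genes in skin and for 19 in tumors. The Lce3 genes, known from psoriatic and wounded skin, had 0 of 62970028 counts in skin (95% exact Poisson interval, 0 to 0.0586 CPM). In tumors they had 63 of 32669250, or 1.93 CPM (95% exact Poisson interval, 1.48 to 2.47). By genotype, the Lce3 counts were 5, 2 and 1 in the fl/fl tumors (0.604 CPM over the group) and 11, 28 and 16 in the ΔEP tumors (2.83 CPM; 95% interval, 2.13 to 3.68). Every ΔEP tumor thus held more Lce3 counts than any fl/fl tumor, although on the CPM scale fl/fl replicate 1, the smallest library, overlapped the ΔEP tumors. These pooled levels were taken on raw totals and were not tested, and intervals cover counting error only, since PCR copies are not independent molecules.

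The Lce1 genes had 34 counts in skin (0.540 CPM; 95% exact Poisson interval, 0.374 to 0.755) and 85 in tumors (2.60 CPM; 2.08 to 3.22). In tumors they were divided as 45 counts in fl/fl and 40 in ΔEP libraries. Lce6a went the other way, with 34 counts in skin and 4 in tumors. It had 1, 2 and 9 counts in mock fl/fl, none in mock ΔEP, 5, 3 and 1 in treated fl/fl, 0, 7 and 6 in treated ΔEP, 0, 3 and 0 in tumor fl/fl and 0, 1 and 0 in tumor ΔEP libraries. Lce1g had no count in skin and 0, 4 and 2 counts in fl/fl and 2, 10 and 9 in ΔEP tumors. Among the Lce3 genes, Lce3c had 1, 2 and 0 counts in fl/fl and 2, 10 and 4 in ΔEP tumors, and Lce3d had 2, 0 and 0 and 6, 9 and 4.

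**Figure D2:**
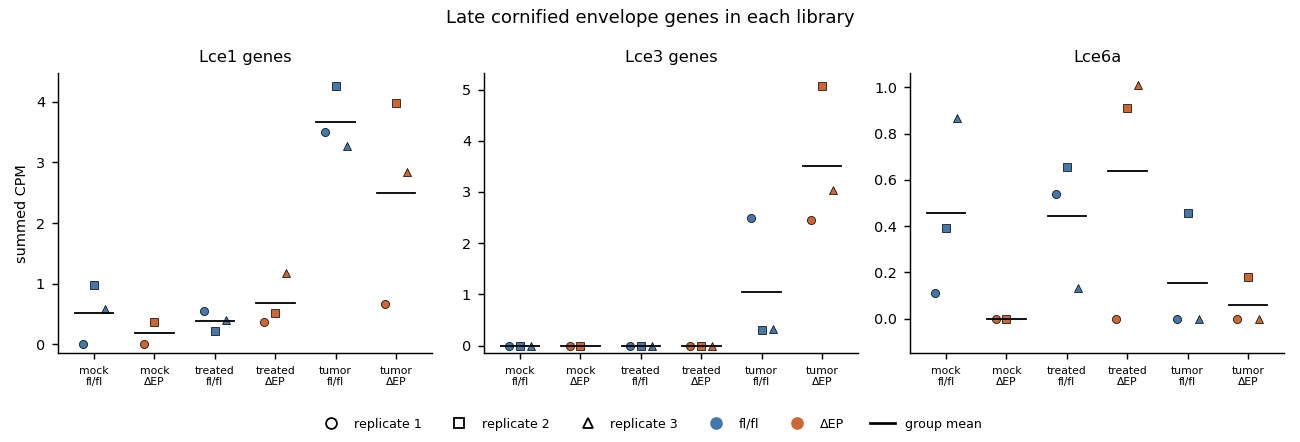
Summed CPM of the 14 Lce1 genes, the 6 Lce3 genes and Lce6a in each library (linear axes of different scale), with bars for group means. Lce3 was at 0 in all 11 skin libraries, and Lce1 was above 2 CPM in every tumor library except ΔEP replicate 1.

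Tumors were first compared with treated skin, which asks what distinguishes papilloma cells from epidermal cells that had met the same agents. In fl/fl mice, 5 of 19 tested barrier genes were called by edgeR's quasi-likelihood test (adjusted p under 0.05 and a fold over 2): Tgm1, Asprv1 and Dmkn rose, and Tchh and Ppl fell. Of all genes tested, 18.0% were called, 7.50% higher and 10.5% lower. In ΔEP mice, 8 of 19 were called, with Tgm1, Cnfn and Asprv1 higher and Tchh, Casp14, Flg, Tgm5 and Calml3 lower, against 26.0% of all genes, 10.5% higher and 15.5% lower. In the same comparison of ΔEP mice the basal keratinocyte genes Itgb4 (3.05), Itga6 (2.42), Col17a1 (2.09), Krt14 (1.86) and Krt5 (1.71 on the log2 scale) rose and suprabasal Krt10 fell (−1.94), at adjusted p of 0.0262 or lower. Of these, Itga6 rose in fl/fl mice (1.76, adjusted p = 0.0160). The part of such cell types in the changes of the barrier genes was not tested. The median log2 fold change of the tested barrier genes was 0.51 in fl/fl and −0.04 in ΔEP mice, against −0.02 and −0.03 over all genes. On total counts without further scaling, which shifts the median of all genes by −0.50 and −0.47, the calls became 2 higher and 5 lower in fl/fl and 1 higher and 7 lower in ΔEP mice. The shares of all genes called on total counts are not given. These calls therefore do not show whether barrier genes moved more than other genes.

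Tgm1, which encodes the membrane-bound transglutaminase that crosslinks the envelope, rose in both genotypes. Its level was 9.20, 8.09 and 8.86 CPM in treated fl/fl skin and 35.5, 30.6 and 26.8 in fl/fl tumors. In ΔEP mice it was 11.3, 23.2 and 24.6 CPM in treated skin and 50.8, 58.2 and 55.5 in tumors. No tumor overlapped the treated skin of its genotype. The log2 fold change was 1.78 (SE 0.22, adjusted p = 0.00249) in fl/fl and 1.38 (SE 0.28, adjusted p = 0.00669) in ΔEP mice. On total counts the change in ΔEP mice was 0.94, below the threshold of fold.

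Asprv1 encodes a retroviral-like aspartic protease of the granular layer that processes filaggrin. It stood at 11.7, 10.1 and 8.73 CPM in treated fl/fl skin and at 29.5, 37.4 and 26.1 in fl/fl tumors, a log2 fold change of 1.58 (SE 0.23, adjusted p = 0.00450). In ΔEP mice it ranged from 5.36 through 16.3 to 31.2 CPM in treated skin and stood at 27.6, 113 and 81.0 in tumors (1.97, SE 0.62, adjusted p = 0.0348). In ΔEP mice the groups overlapped, since tumor replicate 1 lay below treated replicate 3, and the call was lost without treated replicate 2 (adjusted p = 0.107) and without tumor replicates 2 or 3 (0.111 and 0.0896).

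Tchh encodes trichohyalin, which hardens the inner root sheath of hair and is also found in some other cornifying epithelia. It was among the most abundant of these transcripts in treated skin, with 412, 396 and 699 CPM in fl/fl and 277, 364 and 136 in ΔEP mice. In tumors it was 29.0, 37.7 and 11.8 CPM in fl/fl and 20.95, 41.1 and 17.2 in ΔEP mice. All tumors lay below all treated libraries. The log2 fold change was −4.29 (SE 0.46, adjusted p = 0.00177) in fl/fl and −3.40 (SE 0.46, adjusted p = 0.00136) in ΔEP mice. In a fit of all libraries together the change in ΔEP mice was −3.29 and was not called (adjusted p = 0.0913). The inner root sheath keratins Krt25, Krt27, Krt28, Krt71, Krt72 and Krt73 summed to 323 to 943 CPM in treated skin, to 7.19 to 40.8 in fl/fl tumors and to 3.79 to 4.24 in ΔEP tumors. The part of these cells in the change of Tchh was not tested.

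**Figure D3:**
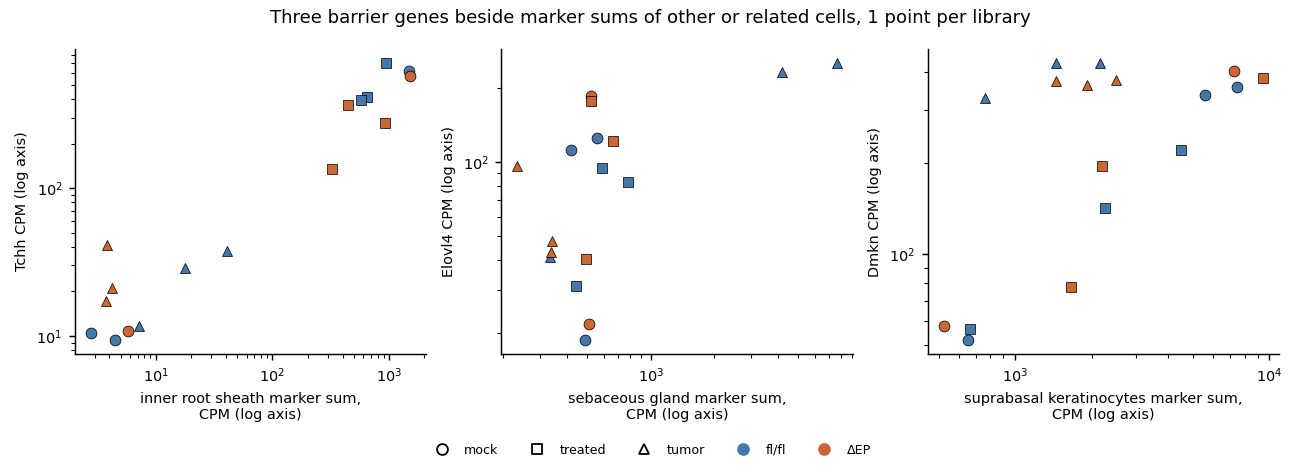
Tchh against the sum of 6 inner root sheath keratins, Elovl4 against the sum of 7 sebaceous gland genes, and Dmkn against Krt1 plus Krt10, each point being 1 library and all axes CPM on a log scale. Tchh was high in the 8 libraries with at least 323 CPM of inner root sheath keratins, Elovl4 was highest in the fl/fl tumor replicates with the high sebaceous sums, and Dmkn was at least 329 CPM in every tumor, where Krt1 plus Krt10 reached at most 2498.

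Of the plakins, which form the scaffold of the envelope at the desmosome, Ppl fell in fl/fl tumors and Evpl was not called. Ppl, encoding periplakin, stood at 202, 251 and 152 CPM in treated fl/fl skin and at 110, 59.2 and 57.5 in fl/fl tumors, a log2 fold change of −1.45 (SE 0.30, adjusted p = 0.0134) without overlap. The call was lost without treated replicate 1, treated replicate 2 or tumor replicate 3 (adjusted p = 0.0578, 0.0567 and 0.0565). In ΔEP mice Ppl was 133, 174 and 255 CPM in treated skin and 148, 190 and 156 in tumors, and was not called. Evpl, encoding envoplakin, was 114, 141 and 63.7 CPM in treated skin and 92.0, 53.1 and 32.7 in tumors of fl/fl mice. In ΔEP mice it was 55.8, 107 and 173 CPM in treated skin and 91.8, 131 and 84.6 in tumors. The groups overlapped in both genotypes.

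Dmkn, encoding dermokine, was 143, 221 and 56.4 CPM in treated fl/fl skin and 429, 329 and 429 in fl/fl tumors (log2 fold change 1.49, SE 0.43, adjusted p = 0.0387). The groups did not overlap, but the call was lost in 4 of the 6 fits that left out a library, at adjusted p of 0.0502 to 0.123. With all libraries kept it was also lost in a fit of all groups together (adjusted p = 0.160), on total counts (0.0915) and with the replicate number as a block (0.0562). In ΔEP mice it was 77.8, 196 and 383 CPM in treated skin and 365, 378 and 375 in tumors and was not called. Its neighbor Krtdap, at 94.0, 159 and 33.7 CPM in treated and 661, 135 and 186 in tumor fl/fl libraries and at 86.0, 223 and 318 and 441, 325 and 371 in ΔEP libraries, was called in neither. Krt1 plus Krt10 ranged from 664 to 9421 CPM over treated libraries and from 764 to 2498 over tumors.

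Cnfn, Casp14, Flg, Tgm5 and Calml3 passed the threshold in ΔEP and not in fl/fl mice, and the test of the difference between genotypes is given with the interactions. Cnfn, encoding cornifelin, a small envelope protein, was 0.179, 2.73 and 2.53 CPM in treated ΔEP skin and 11.1, 17.7 and 8.33 in ΔEP tumors, a log2 fold change of 2.62 (SE 0.62, adjusted p = 0.0118). In fl/fl mice it was 0.433, 0.437 and 0.391 CPM in treated skin and 11.5, 1.98 and 1.63 in tumors and was too low to be tested. Tumors lay above treated skin in both genotypes. Casp14, encoding the caspase of cornifying keratinocytes that takes part in filaggrin breakdown, was 37.2, 62.3 and 189 CPM in treated ΔEP skin and 18.3, 19.7 and 11.0 in ΔEP tumors (−2.63, SE 0.56, adjusted p = 0.00747). In fl/fl mice it was 43.0, 54.6 and 10.4 CPM in treated skin and 12, 17.5 and 21.9 in tumors, which overlapped.

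Flg, encoding filaggrin, was 3.76, 20.2 and 53.1 CPM in treated ΔEP skin and 0, 2.53 and 0.189 in ΔEP tumors (log2 fold change −4.79, SE 1.12, adjusted p = 0.0113). The treated values were spread widely, and the call was lost without tumor replicate 3 (adjusted p = 0.0511). In fl/fl mice Flg was 7.68, 8.30 and 0.521 CPM in treated skin and 5.0, 3.20 and 4.90 in tumors and was not called. Tgm5, a transglutaminase of the upper epidermis, was 3.76, 13.0 and 22.2 CPM in treated ΔEP skin and 3.12, 5.43 and 2.84 in ΔEP tumors, with overlap (−1.85, SE 0.58, adjusted p = 0.0355). In fl/fl mice it was 18.9, 20.3 and 6.78 against 2.00, 6.70 and 5.55 CPM, where it was not called (−1.61, SE 0.52, adjusted p = 0.0558). Calml3, a calmodulin-like protein of differentiating keratinocytes, was 30.2, 63.4 and 104 CPM in treated ΔEP skin and 15.4, 42.0 and 10.4 in ΔEP tumors, also with overlap (−1.63, SE 0.56, adjusted p = 0.0488). In fl/fl mice it was 50.4, 46.3 and 44.2 CPM in treated skin and 16.5, 79.0 and 106 in tumors, where replicate 1 lay below and replicates 2 and 3 above treated skin.

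With all libraries kept, the genes of barrier lipids were not called between treated skin and tumors in either genotype. Abca12 was 130, 171 and 60.7 CPM in treated fl/fl skin, 58.1, 224 and 292 in treated ΔEP skin, 103, 249 and 313 in fl/fl tumors and 204, 271 and 218 in ΔEP tumors. Elovl4 was 82.8, 95.1 and 31.1 CPM in treated fl/fl skin and 40.2, 122 and 177 in treated ΔEP skin. In tumors it was 41.0, 234 and 253 CPM in fl/fl and 47.7, 96.8 and 43.2 in ΔEP libraries. The high fl/fl tumors were the replicates with 4182 and 7606 CPM of sebaceous gland genes, and the part of sebaceous cells was not tested. Cers3, the ceramide synthase for ultra-long acyl chains, was 14.7, 32.4 and 50.4 CPM in treated ΔEP skin and 94.5, 70.9 and 60.0 in ΔEP tumors, without overlap and without passing the test (log2 fold change 1.12, SE 0.39, adjusted p = 0.0507).

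**Figure D4:**
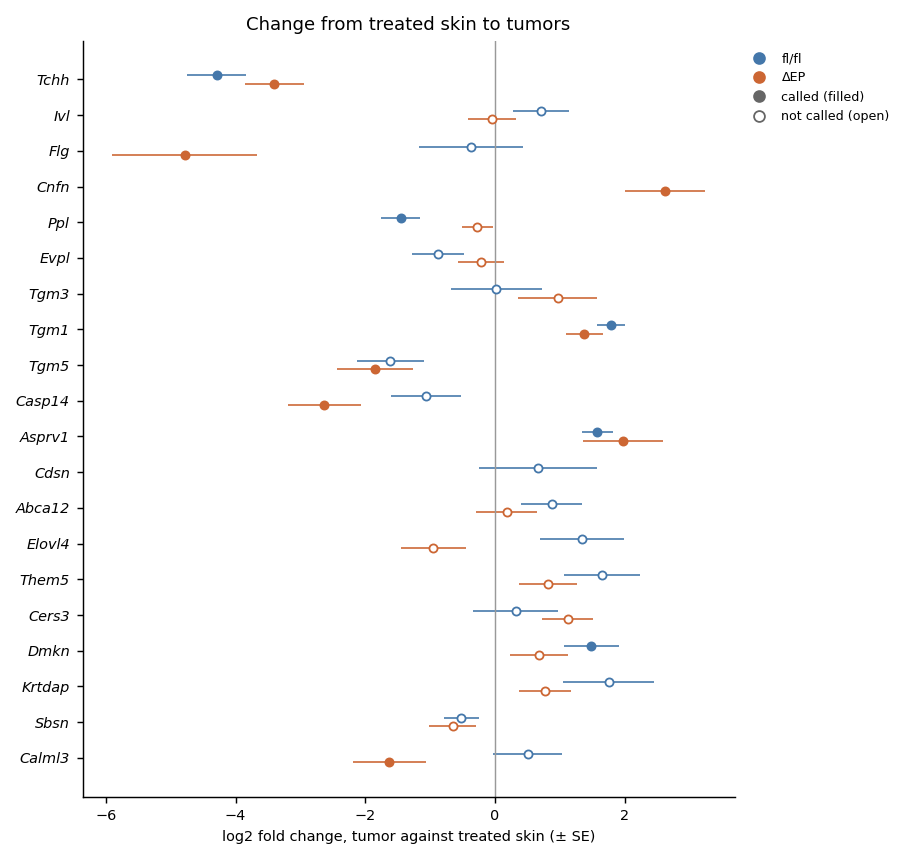
Log2 fold change of tumors against treated skin with its SE for each barrier gene tested, fl/fl in blue and ΔEP in orange, filled where called. Tgm1 and Asprv1 were called higher and Tchh lower in both genotypes.

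These numbers changed with single libraries. Without tumor fl/fl replicate 1, 10 of 20 barrier genes were called between tumors and treated skin of fl/fl mice (24.3% of all genes), with Elovl4, Ivl and Abca12 added among the higher and Evpl and Crnn among the lower. Without treated fl/fl replicate 1, 3 were called. In ΔEP mice the number fell to 5 without treated replicate 2 and to 4 without tumor replicate 3. Only the fit without tumor fl/fl replicate 1 has its share of all genes beside it. The other counts do not show whether barrier genes moved more than other genes.

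Against mock skin, tumors of fl/fl mice showed 2 of 20 barrier genes called (4.11% of all genes, 2.22% higher and 1.88% lower). Asprv1 rose from 6.19, 6.46 and 6.46 CPM in mock skin to 29.5, 37.4 and 26.1 in tumors (log2 fold change 2.25, SE 0.30, adjusted p = 0.0149). Ppl fell from 183, 588 and 683 CPM to 110, 59.2 and 57.5 (−2.72, SE 0.53, adjusted p = 0.0382). Neither group overlapped the other in these genes. With the replicate number as a block the Ppl call was lost (−2.62, adjusted p = 0.112). On total counts 1 was higher and 2 were lower, with the median of all genes shifted by −0.42. The share of all genes called on total counts is not given beside them. No call remained when mock replicate 2 or 3 or tumor replicate 2 or 3 was left out. Without mock replicate 1, the library with the inner root sheath keratins, 7 of 21 were called (21% of all genes), with Tgm1 and Flg higher and Evpl, Sbsn and Casp14 lower beside Asprv1 and Ppl.

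In ΔEP mice, 3 of 18 barrier genes were called between tumors and mock skin, all higher (14.3% of all genes, 7.05% higher and 7.22% lower). Tgm1 was 9.98 and 4.31 CPM in mock and 50.8, 58.2 and 55.5 in tumor libraries (log2 fold change 2.82, SE 0.41, adjusted p = 0.0122). Asprv1 was 4.32 and 4.67 CPM in mock and 27.6, 113 and 81.0 in tumor libraries (3.93, SE 0.67, adjusted p = 0.0181). Cnfn had 0 and 1 counts in the mock libraries against 192 counts in the tumors, a ratio of 64.7 per read (95% exact interval, 11.5 to 2567; adjusted p = 0.0126). For all 3 the groups were apart. The number of calls was 1, 0 and 1 without tumor replicates 1, 2 and 3, 9 without mock replicate 2, and 11 of 21 without mock replicate 1 (28.1% of all genes; 5 higher and 6 lower). Leaving out a mock library leaves 1, which is then assumed to vary like the tumors. Counts without a share of all genes beside them do not show whether barrier genes moved more than other genes. The median log2 fold change against mock skin was 0.40 in fl/fl and 0.54 in ΔEP mice, against −0.05 and −0.06 over all genes.

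Between treated and mock skin no barrier gene was called by edgeR's quasi-likelihood test in either genotype, and neither was any other gene (0% in both). At an unadjusted p under 0.05 there were 3 of 19 in fl/fl mice (5.50% of all genes) and 6 of 23 in ΔEP mice (4.80%). DESeq2 and edgeR's exact test each called 1 gene in each genotype, Calml3 in fl/fl and Flg in ΔEP mice. Calml3 was 14.05, 17.2 and 15.4 CPM in mock and 50.4, 46.3 and 44.2 in treated fl/fl skin, apart from each other (log2 fold change 1.61, SE 0.18, adjusted p = 0.0814). It was 16.2 and 14.4 CPM in mock and 30.2, 63.4 and 104 in treated ΔEP skin, also apart (2.10, SE 0.55, adjusted p = 0.701). Flg was 1.08 and 0.359 CPM in mock ΔEP skin and 0.790 ± 0.312 CPM (SD, n = 3) in mock fl/fl skin. Rptn had no count in mock ΔEP skin and 4, 30 and 23 counts in treated ΔEP skin, at least 6.18-fold higher against a floor of 3 counts over the mock group (adjusted p = 0.802).

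The barrier genes as a group had a median log2 fold change of −0.08 in fl/fl and 0.14 in ΔEP mice in this comparison, with −0.03 and −0.0015 over all genes. Here again the mock libraries differed among themselves. Without mock fl/fl replicate 1, 7 of 21 were called in fl/fl mice (15.1% of all genes), with Tchh, Calml3, Tgm1 and Crnn higher and Ppl, Evpl and Flg2 lower. Tchh was 9.40 and 10.5 CPM in mock fl/fl replicates 2 and 3 and 615 CPM in replicate 1. In ΔEP mice none was called without mock replicate 1, which left 1 mock library that was assumed to vary like the treated ones.

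The genotypes were then compared within each stage, the question being whether loss of tristetraprolin moved the barrier genes. By the quasi-likelihood test no barrier gene passed in any stage: 0 of 20 in mock skin, 0 of 20 in treated skin and 0 of 19 in tumors, with 0%, 0.00616% and 0.0284% of all genes called. At an unadjusted p under 0.05 there were 1, 4 and 6 barrier genes, against 1.59%, 5.55% and 14.0% of all genes. DESeq2 called Ppl in tumors and none in the other stages, and the exact test called none. Medians of the tested barrier genes were 0.08, 0.42 and −0.09 on the log2 scale (ΔEP against fl/fl), with −0.03, 0.02 and −0.02 over all genes.

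In mock skin Ivl, which encodes the early precursor involucrin, and Asprv1 were lower in every ΔEP library. Groups of this kind did not overlap for 12.6% of all genes, 6.97% with ΔEP higher and 5.58% with it lower. Ivl was 15.9, 18.0 and 20.2 CPM in fl/fl and 10.3 and 4.67 in ΔEP skin (log2 fold change −1.27, SE 0.43, adjusted p = 1.0). It was 17.6, 22.1 and 11.1 CPM in treated fl/fl, 12.3, 26.0 and 21.4 in treated ΔEP, 12.5, 28.2 and 42.1 in tumor fl/fl and 12, 20.8 and 29.7 in tumor ΔEP libraries, which overlapped within each stage. Asprv1 was 6.37 ± 0.152 CPM (SD, n = 3) in fl/fl and 4.49 ± 0.250 CPM (SD, n = 2) in ΔEP skin (−0.50, SE 0.36). Neither difference passed the test.

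In treated skin 16 of the 20 tested barrier genes had a higher fitted level in ΔEP and 4 a lower one. The values overlapped for most, since treated ΔEP replicate 3 was high and replicate 1 low. Of the tested genes, Tgm1 was higher in every ΔEP library (1.15 on the log2 scale, SE 0.30, adjusted p = 0.839) and Tchh lower in every one (−0.97, SE 0.38, adjusted p = 0.897), for the values given above. Groups did not overlap for 11.7% of all genes, 5.78% higher and 5.93% lower. Flg (2.22, SE 0.97), Casp14 (1.40, SE 0.69) and Krtdap (1.12, SE 0.58) had larger or similar fitted differences with overlap. The inner root sheath keratins summed to 578 to 943 CPM in treated fl/fl and to 323 to 925 CPM in treated ΔEP libraries; their part in the difference of Tchh was not tested.

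In tumors Ppl and Tgm1 were higher in every ΔEP library and Flg lower in every one, where 17.9% of all genes did not overlap, 13.6% higher and 4.23% lower. Ppl was 110, 59.2 and 57.5 CPM in fl/fl and 148, 190 and 156 in ΔEP tumors (log2 fold change 1.004, SE 0.28, adjusted p = 0.228). Tgm1 was 31.0 ± 4.37 and 54.9 ± 3.75 CPM (SD, n = 3 each; 0.70, SE 0.20, adjusted p = 0.232). Flg was 4.37 ± 1.01 and 0.907 ± 1.41 CPM (−2.26, SE 0.92, adjusted p = 0.332). Elovl4, the gene with the AU-rich heptamers, lay at −1.65 (SE 0.62, adjusted p = 0.305) with overlap through fl/fl replicate 1, as did Calml3, at 16.5, 79.0 and 106 CPM in fl/fl and 15.4, 42.0 and 10.4 in ΔEP tumors (−1.72, SE 0.70, adjusted p = 0.331).

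The count in tumors changed when fl/fl replicate 1 was left out. Without it, 8 of 19 barrier genes differed between the genotypes by the quasi-likelihood test, where 16.9% of all genes did. Higher in ΔEP tumors were Cers3 (log2 fold change 2.32, adjusted p = 0.000390), Ppl (1.39, 0.000843), Cnfn (2.63, 0.00299), Krtdap (1.14, 0.00580), Tgm3 (2.34, 0.0120) and Evpl (1.13, 0.0134). Lower were Elovl4 (−2.07, adjusted p = 0.00133) and Calml3 (−2.13, 0.00850). For Cers3, fl/fl replicate 1 stood at 78.5 CPM among ΔEP tumors at 94.5, 70.9 and 60.0, while fl/fl replicates 2 and 3 stood at 13.2 and 15.03. For Tgm3, a transglutaminase shared with hair, it stood at 62.0 CPM beside 7.46 and 21.2 in the other fl/fl tumors and 92.7, 94.97 and 33.3 in ΔEP tumors. The 2 remaining fl/fl tumors are those with the high sebaceous and low basal keratinocyte sums. In both sums fl/fl replicate 1, left out here, lay nearer to the ΔEP tumors. The part of that difference was not tested.

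**Figure D5:**
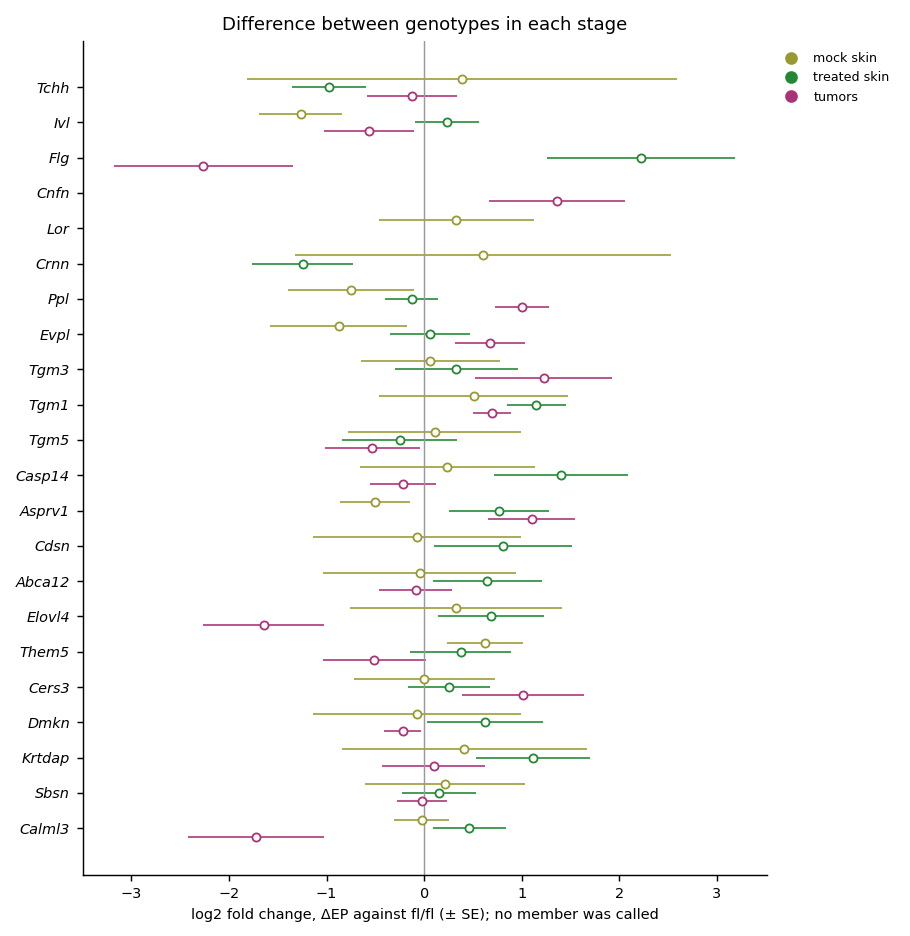
Log2 fold change of ΔEP against fl/fl with its SE for the barrier genes tested in mock skin, treated skin and tumors, with open circles because none was called. Flg lay at 2.22 in treated skin and at −2.26 in tumors.

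Whether a change between stages differed by genotype was tested as an interaction. No barrier gene was called by the quasi-likelihood test for treated against mock skin (0 of 24), tumors against mock skin (0 of 23) or tumors against treated skin (0 of 23), with 0%, 0% and 0.0118% of all genes called. At an unadjusted p under 0.05 there were 2, 2 and 5, against 1.45%, 8.18% and 13.2% of all genes. The 5 in tumors against treated skin were Rptn (−4.70, SE 1.30, adjusted p = 0.207), Ppl (1.20, SE 0.40, 0.266), Flg (−4.40, SE 1.55, 0.275), Elovl4 (−2.27, SE 0.91, 0.315) and Calml3 (−2.12, SE 0.86, 0.318), where a positive value is a higher tumor-to-treated ratio in ΔEP mice. DESeq2 called Rptn there and no other barrier gene in the 3 interactions. Without tumor fl/fl replicate 1, Ppl (1.55), Elovl4 (−2.72), Calml3 (−2.56) and Cers3 (2.09) were called, with adjusted p of 0.0217 to 0.0434, where 7.53% of all genes were. The median over the tested barrier genes was 0.63, −0.13 and −0.67 in the 3 interactions, and 0.03, 0.02 and −0.05 over all genes.

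Other genes of the program were described by lists of transcription factors, lipid enzymes and further differentiation genes. None was called in the comparisons of genotypes, of treated with mock skin, or in the interactions. Between tumors and treated skin, the 18 late differentiation factors had 2 higher and 4 lower in fl/fl and 5 higher and 4 lower in ΔEP mice, where 18.0% and 26.0% of all genes were called. Prdm1, encoding BLIMP1, a repressor needed in granular keratinocytes, rose in both (2.69 and 2.53 on the log2 scale), as did Grhl3, a Grainyhead-like factor of barrier formation (2.19 and 2.02). Dlx3, a homeobox factor of epidermis and hair, fell in both (−5.16 and −5.21), as did Hopx (−1.91 and −2.83) and Pou2f3 (−2.73 and −3.10). Dlx3 was 110 to 216 CPM in treated skin apart from ΔEP replicates 2 and 3 (61.5 and 82.6), 2.29 to 5.33 in tumors, 213 and 203 in replicate 1 of each mock group and 1.08 to 1.37 in the other mock libraries. The hair shaft and matrix genes summed to 162 to 411 CPM in treated skin and to 3.597 to 51.0 in tumors, and their part in these changes was not tested. Adjusted p values of these 5 factors were 0.00986 or lower in both genotypes. Against mock skin the list had 1 higher and 2 lower in fl/fl and 2 higher and 4 lower in ΔEP mice, beside 4.11% and 14.3% of all genes.

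Of the other lipid enzymes, 5 of 19 were higher and 1 lower in fl/fl tumors against treated skin, and 4 of 21 were higher and 5 lower in ΔEP tumors, beside 7.50% higher and 10.5% lower of all genes in fl/fl and 10.5% and 15.5% in ΔEP mice. Ugcg, which makes the glucosylceramides that barrier ceramides are stored as, rose in both (1.88 and 2.56), and Lipn, an epidermal lipase, did too (4.003 and 2.39, adjusted p = 0.00393 and 0.0304). Acer1, an epidermal ceramidase, fell in ΔEP mice (−3.08, adjusted p = 0.00231) and was not called in fl/fl mice (0.56). Against mock skin the list had 3 of 18 higher and 0 lower in fl/fl and 4 of 20 higher and 2 lower in ΔEP mice (4.11% and 14.3% of all genes called). Median log2 fold changes of tumors against treated skin were 0.72 in fl/fl and −0.15 in ΔEP mice for this list. Its sum was 570, 1670 and 2500 CPM in the fl/fl tumors, whose sebaceous gland genes summed to 334, 4182 and 7606 CPM, and 557 to 824 CPM in the ΔEP tumors, whose sebaceous genes summed to 233 to 339. The part of sebaceous cells was not tested.

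The further differentiation genes had 5 of 15 higher and 1 lower in fl/fl tumors against treated skin and 6 of 15 higher and 5 lower in ΔEP tumors, beside 18.0% and 26.0% of all genes called. Sprr1b, an envelope precursor of the small proline-rich family, rose by 5.50 (adjusted p = 0.00787) and 3.604 (0.000719) on the log2 scale. In ΔEP tumors the desquamation proteases Klk5 and Klk7 and the protease inhibitor Cst6 fell (−5.77, −4.91 and −5.26, adjusted p of 0.000991 or lower). In fl/fl mice these genes were not called (−0.56, 1.26 and 0.16). Of 16 tested against mock skin, 3 were higher and 0 lower in fl/fl and 5 higher and 2 lower in ΔEP mice (4.11% and 14.3% of all genes called).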

How the data were processed

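The authors deposited raw counts, obtained from RNA of sorted epidermal cells with the Ovation SoLo kit on an Illumina HiSeq. The submitters' processing notes name Trimmomatic 0.36, STAR 2.5.3, HTSeq 0.9.1, DESeq2 and mm10; the use of strand and the removal of duplicate reads are not given in the sources used here. PCR copies are not independent molecules. No column lay outside the design.

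Total counts per library ran from 2808550 to 9617985. The software was edgeR 4.0.16 with limma 3.58.1, and DESeq2 1.42.0, under R 4.3.3. Only libraries of the groups compared entered a fit. Genes passing filterByExpr were scaled by TMM and tested two-sided by the quasi-likelihood F test of edgeR, with Benjamini-Hochberg adjustment over all genes tested. A call needed an adjusted p under 0.05 and a fold over 2, and SE is that of the fitted log2 fold change. CPM used TMM-scaled sizes of the 17 libraries. Positions come from the GENCODE annotation of GRCm38, which held 52489 of the 52636 gene IDs. The procedures were tested on simulated data.

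The genes, lists and rules were chosen with earlier results of these data known. Named with values by library are, in each role, the 2 genes with the highest mean CPM, up to 3 called genes in each direction of a comparison, and, between genotypes, up to 5 genes whose groups do not overlap; genes given beyond these were chosen after their values were seen. Alternatives were DESeq2, the exact test, a fit of all libraries together, RLE and total-count scaling, absence of the filter, a mean count of 10 or more, the identical columns as 2 libraries, a replicate block, and omission of every library by turns. Other experiments of the study were not analyzed here.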

Additional observations from a re-analysis of the deposited data

How the results depend on the processing

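Counts of the Lce genes and of several precursors were low, and libraries of 1 group differed among themselves in many of the other genes. The number of barrier genes called moved as follows. Without the filter on low counts it was 5 between genotypes in treated skin, 9 between genotypes in tumors, 1 and 4 for treated against mock skin in fl/fl and ΔEP mice, 9 and 9 for tumors against mock skin, 13 and 19 for tumors against treated skin, and 1 and 7 for the interactions of tumors with mock and with treated skin. With DESeq2 it was 1 between genotypes in tumors, 1 and 1 for treated against mock skin, 7 for tumors against mock skin and 8 for tumors against treated skin in fl/fl mice, and 1 for the interaction of tumors with treated skin. With the exact test it was 1 and 1 for treated against mock skin, and 7 and 8 for tumors against mock and treated skin in fl/fl mice. In a fit of all libraries together it was 8 for tumors against mock skin in fl/fl mice and 5 for tumors against treated skin in ΔEP mice. With the identical columns as 2 libraries it was 6 for tumors against mock skin in ΔEP mice. The filter sets how many genes are tested. Whether that, or anything else, caused these moves was not tested. The shares of all genes called are not given beside the counts here and in the paragraphs that follow. These counts therefore do not show whether barrier genes moved more than other genes.

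With 1 library left out, the number called ran from 0 to 8 between genotypes in tumors, 0 to 7 for treated against mock skin and for tumors against mock skin in fl/fl mice, 3 to 10 for tumors against treated skin in fl/fl mice, 0 to 11 for tumors against mock skin and 4 to 11 for tumors against treated skin in ΔEP mice, and 0 to 4 for the interaction of tumors with treated skin, and it was 0 throughout for the others. For named genes, 105 of 133 such values kept their direction and side of the threshold, 27 lost the call and 1 gained one. With all libraries kept, 180 of 191 did, 7 lost the call and 4 gained one. None changed direction.

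Samples shared replicate numbers across groups, but the deviations of 24 same-numbered pairs correlated at −0.585 to 0.811, with 13 at or below 0.1, so the numbers were not taken as a pairing. In 3 of 9 comparisons, however, all pairs exceeded 0.1, with 0.811 and 0.609 between the mock genotypes. With the replicate number as a block, 1 barrier gene was called for tumors against mock skin and 4 for tumors against treated skin in fl/fl mice, and 4 and 7 in ΔEP mice, and the comparisons at 0 stayed at 0. Of 129 group means of at least 1 CPM, 127 stayed within 1 SD with RLE scaling and 116 with total counts, which shift the median of all genes by 0.21 for treated against mock skin and −0.30 for tumors against mock skin in ΔEP mice and by −0.20 between mock genotypes.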
